A study of Mus musculus with 9 samples.

Results

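The cells described here were fibroblasts, in cultures of mouse embryonic fibroblasts (MEFs) under reprogramming to induced neurons (iNs), that held RNA of at least 3 of the 5 genes Foxd1, Pax9, Tnmd, Col2a1 and Igsf10. They are called members below. They were chosen by UMI counts (unique molecular identifiers, 1 for each RNA molecule counted). Kept cells had 3000 or more UMI, of which 20% or fewer were mitochondrial. A fibroblast had at least 60 UMI of Col1a1, Col1a2 and Col3a1 per 10000 UMI and fewer than 10 UMI of Tyrobp, Fcer1g, Ctss and Csf1r, and a member had at least 1 UMI of 3 or more of the 5 markers. This rule found 3885 members among 52224 fibroblasts (7.44%) and 81999 cells in all. Because the counts of the same cells chose them, marker levels and differences between members and other fibroblasts are given as a description, with no test.

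The study asked how the circadian regulators Per1 and Per2 bear on the conversion of MEFs to iNs. Its 9 libraries (10x Genomics droplets, 3′ chemistry) were 1 each of WT, Per1-/- and Per2-/- cultures on days 4, 7 and 10 after doxycycline. All cultures, WT included, carried lentivirus with neuronal reprogramming factors and the doxycycline-dependent activator rtTA. Libraries held 6399 to 11934 cells and 161 to 638 members, with medians of 19208 to 38234 UMI per member. The alleles of the mutants were Per1tm1Drw and Per2tm1Drw. MEFs were made from mid-gestation embryos without head and heart, with 4 embryos pooled in a preparation and their sex not given, so a library is 1 culture of pooled animals.

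Foxd1 is a forkhead transcription factor of renal stroma and of facial and paraxial mesenchyme, and Pax9 is a paired-box factor that works with Pax1 in the sclerotome, the part of the somite that makes vertebrae and ribs. Tnmd (tenomodulin) is a surface protein of maturing tendon cells, Col2a1 is the main collagen chain of cartilage, and Igsf10 is a large secreted immunoglobulin-superfamily protein of mesenchymal cells. Tendon and cartilage arise from neighbouring progenitors in the trunk, head and limbs, and the position of such cells along the body and the limb is recorded by the Hox genes, whose paralogue numbers run from anterior to posterior and, in the limb, from proximal to distal.

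On the GRCm38 assembly Foxd1 is on chromosome 13 (98354242 to 98359305), Pax9 on chromosome 12 (56691767 to 56712822), Tnmd on chromosome X (133850980 to 133865577), Col2a1 on chromosome 15 (97975602 to 98004695) and Igsf10 on chromosome 3 (59316735 to 59344394). The promoters of the 3 genes that name the cells are shown, and with them that of Zic1, a regulator that was higher in members in every library, from 250 bases before to 50 bases after a RefSeq start (GRCm38.p6), 5′ to 3′ and with CG pairs in capitals. The windows are chr13:98353995-98354294 (Foxd1), chr12:56695221-56695520 (Pax9) and chrX:133850758-133851057 (Tnmd) on the plus strand and chr9:91365719-91366018 (Zic1) on the minus strand.
Foxd1: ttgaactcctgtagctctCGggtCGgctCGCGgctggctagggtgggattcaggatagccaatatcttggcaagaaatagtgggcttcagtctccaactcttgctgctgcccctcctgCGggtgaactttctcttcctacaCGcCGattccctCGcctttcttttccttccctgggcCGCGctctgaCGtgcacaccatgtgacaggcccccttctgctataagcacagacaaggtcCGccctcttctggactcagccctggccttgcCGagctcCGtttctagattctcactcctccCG
Pax9: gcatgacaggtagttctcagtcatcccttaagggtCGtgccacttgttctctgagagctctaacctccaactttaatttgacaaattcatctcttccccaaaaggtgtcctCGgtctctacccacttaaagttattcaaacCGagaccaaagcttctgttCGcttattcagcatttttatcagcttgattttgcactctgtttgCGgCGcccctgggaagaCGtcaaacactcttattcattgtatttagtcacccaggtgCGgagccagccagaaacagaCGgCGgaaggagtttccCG
Tnmd: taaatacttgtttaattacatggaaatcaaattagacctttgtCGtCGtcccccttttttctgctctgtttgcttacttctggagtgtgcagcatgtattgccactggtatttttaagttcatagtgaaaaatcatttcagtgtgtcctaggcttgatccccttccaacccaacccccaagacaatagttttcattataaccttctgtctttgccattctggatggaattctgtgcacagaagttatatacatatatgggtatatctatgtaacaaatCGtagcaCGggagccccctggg
Zic1: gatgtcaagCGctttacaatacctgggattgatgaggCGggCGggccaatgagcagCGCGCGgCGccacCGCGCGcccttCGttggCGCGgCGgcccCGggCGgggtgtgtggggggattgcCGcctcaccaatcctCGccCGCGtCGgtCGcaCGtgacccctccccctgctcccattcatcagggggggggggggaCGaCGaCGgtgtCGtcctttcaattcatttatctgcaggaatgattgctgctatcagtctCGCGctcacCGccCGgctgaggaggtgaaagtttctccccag
They held 15, 11, 4 and 31 CG pairs, in that order, against a median of 7 over 32851 promoters of this length, of which 10.6% held as many as that of Zic1. The letters CACGTG, an E-box that clock activators bind, were in the window of Zic1 and in none of the other 3, and 7.15% of all promoters held them. The letters TATAAA, on either strand, were in none of the 4 windows and in 13.6% of all promoters.

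Among members, Foxd1 was present in 66% of cells, Pax9 in 62.7%, Tnmd in 66.3%, Col2a1 in 30.1% and Igsf10 in 99.0%. In the other fibroblasts the shares were 3.94%, 3.82%, 20.3%, 1.60% and 78.8%, and in 7354 macrophages, which should lack these genes, 1.17%, 0.544%, 2.53%, 0.680% and 7.79%. The median depths were 27984, 22287 and 22461 UMI. Igsf10 was thus a gene of most fibroblasts, and for nearly all members the rule came down to at least 2 of the other 4 genes. In summed members Foxd1 was at 97.4, 89 and 85.6 CPM (counts of a gene scaled to an equal total of UMI per library) in WT, Per1-/- and Per2-/- cells on day 4, 91, 97.6 and 52.1 CPM on day 7 and 70.02, 45.3 and 106 CPM on day 10. Pax9 was at 23.6 to 54 CPM over the 9 libraries, Tnmd at 49.2 to 178 CPM and Igsf10 at 158 to 401 CPM. Col2a1 ranged from 8.45 CPM in WT members on day 4 to 88.5 and 126 CPM in Per2-/- members on days 7 and 10.

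The markers did not all go together. In fibroblasts thinned at random to 10000 UMI each, so that depth was equal, Pax9 was in 19.4% of cells with Foxd1 and in 3.82% of cells without it, and the ratio of these shares was above 1 in 9 of 9 libraries, from 3.75 to 7.24. Col2a1 was more frequent in cells with Foxd1 (ratios of 3.98 to 11.8), with Pax9 (1.64 to 11.5) and with Tnmd (1.46 to 4.47), each in 9 of 9 libraries. Tnmd was in 20.1% of cells with Foxd1 and 17% of cells without it, and the ratio was above 1 in 5 of 9 libraries, from 0.616 to 2.16. Given Pax9, the ratio for Tnmd was above 1 in 5 of 9 libraries as well, from 0.863 to 1.496. As a description of genes that the rule itself used, Foxd1 and Pax9 were associated in the same direction in every library and Tnmd with either of them was not. Members with Foxd1, Pax9 and Igsf10 alone numbered 890 (22.9%), with Pax9, Tnmd and Igsf10 795 (20.5%), with Foxd1, Tnmd and Igsf10 691 (17.8%), with Foxd1, Pax9, Tnmd and Igsf10 332 (8.55%), and with all 5 genes 98 (2.52%).

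**Figure D1:**
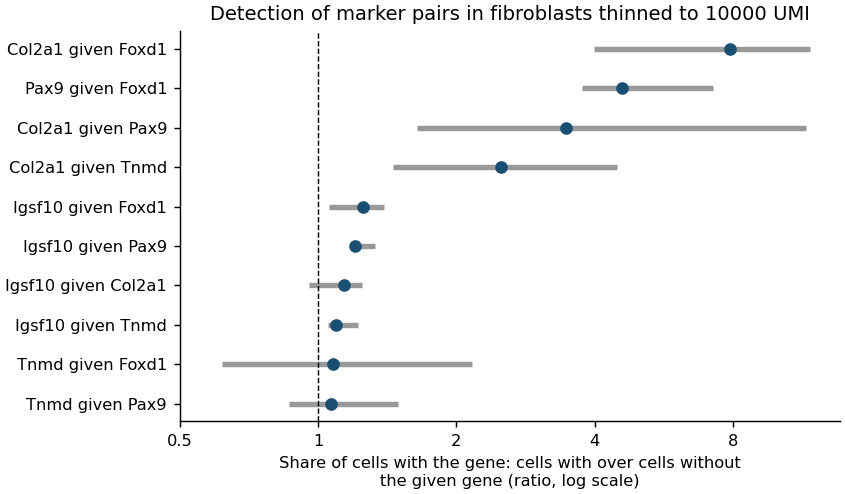
Detection of pairs of marker genes in fibroblasts thinned to 10000 UMI. The axis of ratios (log scale) gives the share of cells with a gene among cells that hold the given gene, divided by its share among cells that do not; points are medians and bars the range over 9 libraries. The values of Tnmd given Foxd1 (0.616 to 2.16) span 1, and those of Pax9 given Foxd1 (3.75 to 7.24) lie above it.

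By their markers the members fell into 3 groups without overlap, which were set after the values were seen. These are called the pair group (Foxd1 and Pax9, 1483 members, 38.2%), the Tnmd group (Tnmd with 1 of that pair and without Col2a1, 1486 members, 38.2%) and the Col2a1 group (Col2a1 without the pair, 916 members, 23.6%). The Col2a1 group was 9.70% of WT members on day 4, 15.8% on day 7 and 27.3% on day 10. It was 11.4%, 14.8% and 16.3% of Per1-/- members on these days and 15.5%, 36.6% and 50.6% of Per2-/- members. Per2-/- members of days 7 and 10 thus had the largest shares in this group. The pair group ranged from 25.1% of Per2-/- members on day 10 to 54.3% of WT members on days 4 and 7, and the Tnmd group from 24.2% of Per2-/- members to 52.4% of Per1-/- members, both on day 10.

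Several regulators of the trunk and axial skeleton were higher in members. Pax1, the sclerotome partner of Pax9, was at 14.6, 13.1 and 20.1 CPM in WT, Per1-/- and Per2-/- members on day 4, 16.8, 13.3 and 11.6 CPM on day 7 and 7.87, 14.3 and 11.4 CPM on day 10. In the other fibroblasts it was at 1.98 to 3.66 CPM, so the ranges did not overlap. Zic1, a zinc-finger factor of dorsal neural tube and somites, was at 36.8 to 114 CPM in members and 5.99 to 25.4 CPM in others. Its log2 ratio (of CPM + 0.5, members over other fibroblasts of the same library) was 2.15 at the median of the 9 libraries and 1.93 at the lowest. Zic4, whose start lies 3397 bases from that of Zic1, had a median log2 ratio of 1.88. Zic2 and Zic5, a pair of neighbours on chromosome 14 whose starts are 9758 bases apart, had median ratios of 2.45 and 2.08.

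Over 15315 genes with at least 10 UMI in every library in members or in other fibroblasts, 4.62% were higher in members in 9 of 9 libraries and 6.92% lower. At least 2-fold higher in 9 of 9 libraries were 17 genes (0.111%), namely Zic2, Pcp4, Igfbp2, Zic1, Nkx6-1, Zic5, Enpep, Pax1, Nefm, Zic4, Vtn, Halr1, Fgd6, Srgn, Itih2, Nmnat2 and Rcsd1. At least 2-fold lower were 7 (0.0457%), namely Sema3d, Pitx1, Tbx4, Hand2, Hoxd13, Angptl7 and Hoxa13. A lower gene could be counted through the other fibroblasts alone, where it was high. In members Angptl7 was at 0.239 to 3.79 CPM and Hoxa13 at 0.718 to 8.85 CPM, so their ratios rest on few UMI in some libraries. The counts of 17 and 7 genes both depended on the setting. With 2 CPM added in place of 0.5 the counts were 7 higher and 1 lower, without marked doublets 20 and 17, and with at least 4 markers 16 and 13. Igfbp2, a secreted binding protein of insulin-like growth factors, was at 634, 558 and 390.2 CPM in WT, Per1-/- and Per2-/- members on day 4, 1248, 1234 and 914 CPM on day 7 and 1016, 942 and 1062 CPM on day 10. It was at 118 to 288 CPM in other fibroblasts, without overlap. At the median library, without thinning, Igfbp2 was present in 79.8% of members and 41.2% of others. Members were the deeper cells, and detection rises with depth.

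Ordered by the median log2 ratio, the 20 highest genes among those in 1 direction in 9 of 9 libraries were Zic2 (2.45), Pcp4 (2.38), Igfbp2 (2.21), Zic1, Nkx6-1 (2.14), Foxf1 (2.1), Nefl (2.09), Zic5, Enpep (2.08), Pax1 (2.06), Ntrk3 (1.97), Foxa1 (1.97), Nefm (1.93), Zic4, Cemip (1.87), Gjb2 (1.86), Col26a1 (1.81), Gm9885 (1.8), Foxc1 (1.8) and Vtn (1.77). Nkx6-1 and Foxa1, best known from the ventral neural tube and from endoderm, were low in absolute terms, with Nkx6-1 at 2.01 to 10.5 CPM in members and 0.396 to 1.12 CPM in others. Foxf1, a forkhead factor of visceral and sclerotomal mesenchyme, was at 3.83 to 11.9 CPM in members and 0.823 to 2.46 CPM in others. Nefl, the light neurofilament chain, was uneven between libraries, at 8.21 to 174 CPM in members and 2.8 to 14.3 CPM in others.

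In a list of sclerotome and axial regulators, 5 of 11 counted genes were higher in members in 9 of 9 libraries (Pax1, Foxc1, Foxc2, Zic1 and Fli1) and 0 were lower, with a list median of 0.82 against -0.02 over all genes. For this and the later lists, the shares over all genes were 4.62% higher and 6.92% lower in 9 of 9 libraries. The lists were chosen with earlier results of these data known. Foxc1, a forkhead factor of paraxial mesoderm, was at 79.4 to 132 CPM in members and 25.8 to 63 CPM in others, and Foxc2 had a ratio of 1.5. Nkx3-2, which acts after Pax1 and Pax9 in vertebral bodies (0.94), and Uncx, a gene of the posterior somite (0.82), were higher in 8 of 9 libraries. Meox2 (-0.33) and Tbx18 (-0.60), which mark the somite and its anterior part, and Twist1 (-0.21), a gene of mesenchyme at large, were higher in 1, 2 and 1 of 9. Among 18 regulators of face, pharynx and renal stroma, 5 were higher in 9 of 9 libraries, among them Foxf1, Foxd2 and Foxf2, while 2 were lower (Hand2 and Osr2) and the median was 0.25. Foxd2 had a median log2 ratio of 1.36. Barx1, Lhx8 and Six2, which pattern jaw, tooth and palate, were higher in 7, 7 and 8 of 9 libraries, and Alx1 and Alx4, which pattern the frontonasal region, in 2 and 3.

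Most of the limb regulators were lower in members in every library. Tbx4, the hindlimb T-box gene, was at 1.73 to 5.68 CPM in members and 4.83 to 23.2 CPM in others, a median log2 ratio of -1.87. Of 13 limb regulators 7 were lower in 9 of 9 libraries and 0 higher, with a median of -0.27. Besides Tbx4 these were Msx1, a gene of distal limb mesenchyme (-1.95), Tbx5, the forelimb T-box gene (-1.61), Pitx1, which directs hindlimb identity (-1.59), Lmx1b, which makes the dorsal side of the limb (-1.25), Shox2 (-0.97) and Tbx3 (-0.26). Among genes in 1 direction in 9 of 9 libraries, the 10 with the lowest median ratio were Lhx2 (-2.37), Hoxa13 (-2.2), Hoxd12 (-2.13), Angptl7 (-2.04), Hoxd13 (-1.96), Msx1, Hand2 (-1.88), Nexmif (-1.88), Tbx4 and Tfap2b (-1.83). Lhx2 is a factor of the growing limb bud and Hand2 patterns the limb and the branchial arches.

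The Hox genes were ordered by paralogue number. Of 13 counted genes of groups 1 to 5, 8 were higher in members in 9 of 9 libraries and 0 lower, with a median log2 ratio of 0.68. Of 12 genes of groups 6 to 9, 1 was higher (Hoxb8), 1 was lower (Hoxa9) and the median was 0.06. Of 10 counted genes of groups 10 to 13, 0 were higher and 6 lower, with a median of -1.13. Hoxa3 was at 13.3 to 26.1 CPM in members and 4.7 to 16.5 CPM in others (1.19). Hoxd13, the gene of digits and genital tubercle, was at 12.2, 9.58 and 5.62 CPM in WT, Per1-/- and Per2-/- members on day 4, 7.91, 0.878 and 11.8 CPM on day 7 and 14.2, 1.98 and 26.9 CPM on day 10. In other fibroblasts it was at 45.1, 48.6 and 45.4 CPM on day 4, 45.4, 3.31 and 64.2 CPM on day 7 and 56.5, 5.37 and 85.2 CPM on day 10. Per1-/- cultures of days 7 and 10 had little Hoxd13 in either group of cells, and members were below others there too. Hoxc4, Hoxc5 and Hoxc13 did not follow this order, with medians of 0.02, 0.10 and 0.11. Hoxc8, of groups 6 to 9, was at -0.01.

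**Figure D2:**
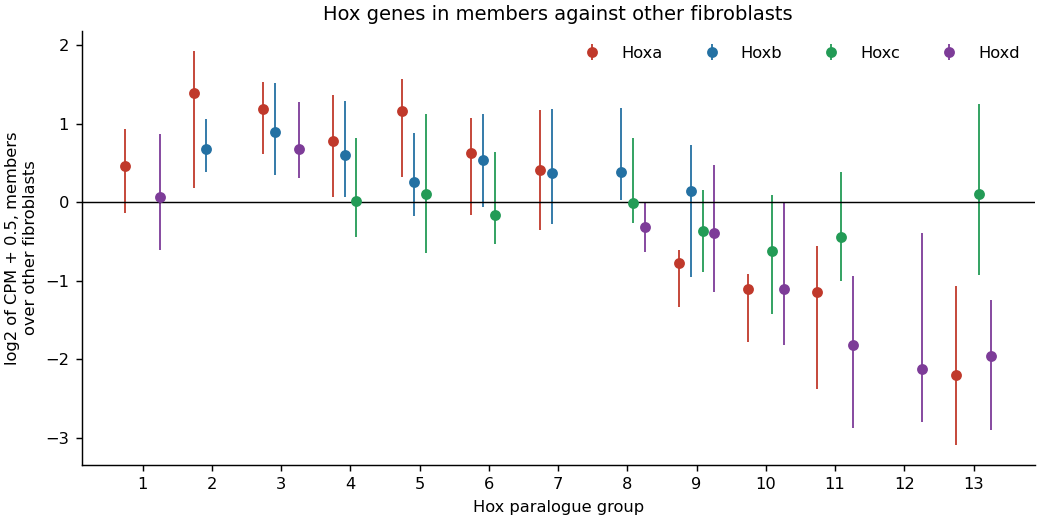
Hox genes in members against other fibroblasts. The vertical axis is the log2 ratio of CPM + 0.5, with the median and the range over 9 libraries, and the horizontal axis orders the genes by paralogue group and cluster. Hoxa2 lies at 1.39, Hoxa9 at -0.78, Hoxa11 at -1.14 and Hoxa13 at -2.2, while Hoxc13 lies at 0.11.

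Cartilage genes were less uniform. Of 15 counted chondrogenic genes, 4 were higher in members in 9 of 9 libraries (Sox5, Col9a3, Col11a1 and Col11a2), 1 was lower (Hapln1, a link protein of cartilage matrix) and the median was 0.17. The shares over all genes were 4.62% higher and 6.92% lower. Sox9, the master regulator of cartilage, was at 67.3 to 161 CPM in members and 60.2 to 219 CPM in others and was higher in 6 of 9 libraries. Col11a1, a fibrillar collagen chain of cartilage and other mesenchyme, was at 700.1 to 1181 CPM in members and 341 to 832 CPM in others. Of the defining genes of mature cartilage, Acan (aggrecan) was at 0 to 2.85 CPM in members of 8 libraries and 11.2 CPM in Per2-/- members on day 10, Col10a1 was at 0 to 3.79 CPM and Ihh at 0 to 0.146 CPM. At these levels the members are not called chondrocytes here.

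Among 18 tendon and ligament genes, 4 were higher in 9 of 9 libraries: Scx, the tendon progenitor factor (0.53), Thbs2 (0.59), Mkx, a second tendon factor (0.33), and Fmod, a small proteoglycan of tendon (0.24). Scx was at 27.9, 36 and 24.6 CPM in WT, Per1-/- and Per2-/- members on day 4, 28.7, 28.7 and 32.8 CPM on day 7 and 37.9, 19.6 and 35.4 CPM on day 10. The other fibroblasts had 10.1 to 24.7 CPM, so the ranges overlapped although members were higher within each library. Kera (-0.80) and Chodl (-1.13) were lower in 9 of 9 libraries. The list median was -0.03 against -0.02 over all genes, of which 4.62% were higher and 6.92% lower in 9 of 9 libraries. Of 11 counted osteogenic genes, Runx2, the first regulator of bone, and Phex were higher in 9 of 9 libraries and Mef2c was lower, with a median of 0.12. Runx2 was at 27.8 to 47.7 CPM in members and 11.2 to 25 CPM in others, and Sp7, which acts after Runx2, was at 0.0706 to 1.04 CPM in members.

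Of 29 skeletal signals, 5 were higher in 9 of 9 libraries, 5 were lower and the median was -0.10. The higher ones were Igf1 (1.0), Bmp4 (0.89), Fgf18 (0.67), Igf2 (0.51) and Tgfb3 (0.32). Igf1, insulin-like growth factor 1, was at 173 to 572 CPM in members and 99.1 to 278 CPM in others. The lower ones were Dkk2, a Wnt antagonist (-1.61), Bmp2 (-1.5), Grem1 (-0.97) and Nog (-0.67), which bind and block BMPs, and Gli1, a target of hedgehog signals (-0.43). Of 18 genes common to fibroblasts, 3 were higher (Pdgfrb, Col6a1 and Col6a2) and 4 lower (Dcn, Lum, Mfap4 and Vim), with a median of -0.09. Dcn and Lum, small proteoglycans of connective tissue, had ratios of -0.94 and -0.90. Of 11 genes of adventitial fibroblasts, 0 were higher and 5 lower in 9 of 9 libraries (Ly6a, Ly6c1, Pi16, Cd34 and Sema3c), with a median of -0.36. Beside these counts, 4.62% of all genes were higher and 6.92% lower in 9 of 9 libraries.

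The 3 groups of members were not alike. Pax1 had median log2 ratios to other fibroblasts of 2.52, 1.45 and 1.53 in the pair, Tnmd and Col2a1 groups, and was higher in the pair group than in the Tnmd group in 9 of 9 libraries and than in the Col2a1 group in 9. Zic1 was at 2.56, 1.51 and 2.05 in the same order. Nkx6-1 was at 2.42, 0.36 and 2.47 and Nefl at 3.58, 0.24 and 1.61, so the Tnmd group was nearest to other fibroblasts in these genes. Nkx6-1 was low in all cells, and a group could hold few cells in a library. Per2-/- day 4 had 25 members in the Col2a1 group and 64 in the Tnmd group, so these ratios rest on small counts there. Cartilage genes were highest in the Col2a1 group, with Col11a2 at 0.71, 0.27 and 2.26, Matn4, a matrilin of cartilage, at 0.05, 0.22 and 2.0 and Col9a3 at 0.40, 0.09 and 1.93. Matn4 was higher in the Col2a1 than in the Tnmd group in 9 of 9 libraries. The tendon factor Scx was at 0.76, 0.37 and 0.84. The pair and Col2a1 groups held cells with the tendon gene Tnmd too. Among these were 332 members with Foxd1, Pax9, Tnmd and Igsf10 and 367 with Tnmd, Col2a1 and Igsf10. These groups therefore do not set Scx against Tnmd. Hoxd13 was at -2.59, -1.82 and -2.15 and Tbx5 at -2.36, -0.93 and -1.31. By list, the medians over 11 sclerotome and axial genes were 1.32, 0.56 and 0.35, over 15 chondrogenic genes 0.05, 0.02 and 0.49, over 18 tendon genes -0.20, -0.01 and 0.03 and over 10 Hox genes of groups 10 to 13 -1.74, -0.75 and -1.34.

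**Figure D3:**
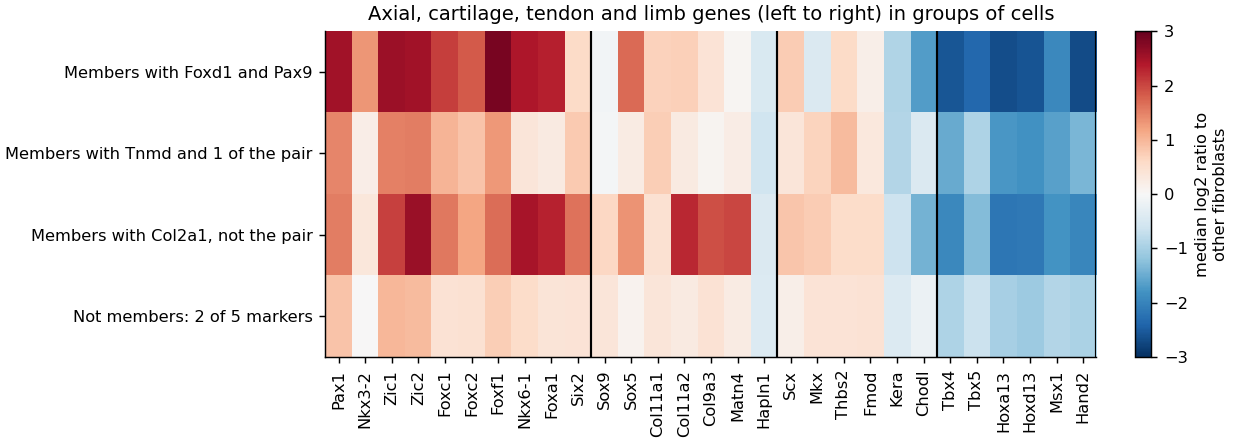
Median log2 ratio to other fibroblasts (CPM + 0.5, over 9 libraries) of axial, cartilage, tendon and limb genes in the pair, Tnmd and Col2a1 groups of members and in fibroblasts with 2 of the 5 markers, which are not members. The cells with 2 markers are themselves part of the other fibroblasts. Colour gives the ratio, red for higher and blue for lower. Pax1 is at 2.52, 1.45 and 1.53 in the 3 groups and 0.86 in cells with 2 markers, and Col11a2 is highest in the Col2a1 group (2.26).

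The rule drew its line through a gradual change. The 3050 members with 3 markers, just inside it, had Pax1 at 12.7 CPM at the median library, and the 12127 fibroblasts with 2 markers, just outside, at 5.34 CPM. Zic1 was at 58 and 24.7 CPM, and the log2 ratio of Hoxd13 to other fibroblasts was -1.93 and -1.1. The cells with 2 markers are themselves part of the other fibroblasts, so their ratio sets a part against a whole that holds it. At the collagen limit, 42 members had 60 to 66 UMI per 10000, and 34 cells with 3 markers missed it with 54 to 60. At the limit for macrophage genes, 8 members had 5 to 10 UMI per 10000 and 12 cells missed it with 10 to 15. Of 29775 cells outside the fibroblasts 348 (1.17%) held 3 or more markers, as did 20 of 7354 macrophages (0.272%, 95% exact binomial interval 0.166% to 0.420%). After thinning to 10000 UMI, 1510 of 49007 fibroblasts (3.08%) and 1 of 6880 macrophages (0.0145%) did.

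Members overlapped with other kinds of fibroblast, each marked here by a pair of genes. Ebf2 and Clec3b together, a pair of adventitial stroma, were in 26.0% of members and 13.7% of others (higher in members in 8 of 9 libraries), and C1qtnf3 and Lgr5 in 17.1% and 9.62% (7 of 9). Hoxd13 and Msx1, the distal limb pair, were in 5.46% of members and 22.8% of others, and Crabp1 and Slc14a1 in 8.70% and 14.8%, both rarer in members in 9 of 9 libraries. The pairs Comp and Epyc (4.12% and 4.55%), Tac1 and Reln (3.45% and 3.09%) and Wnt4 and Syt13 (2.91% and 3.90%) were higher in members in 3, 6 and 1 of 9 libraries. Dlx5 and Dlx6 were in 1.11% of members and 1.36% of others when libraries were pooled, but were higher in members in 7 of 9 libraries. Members were deeper than others, and detection rises with depth. Of 12 genes that name those kinds, 0 were higher and 4 lower in members in 9 of 9 libraries, with a median of -0.15.

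Genes of other cell types did not all have the same sums in members and other fibroblasts. The 6 mesothelial genes summed to a median of 2.46 CPM in members and 11.9 CPM in others (ranges of 1.08 to 28.0 and 3.49 to 48.3 CPM) and were higher in members in 1 of 9 libraries. The 11 macrophage genes had medians of 33.4 and 65.2 CPM and were higher in members in 3 of 9 libraries, and the 10 skeletal muscle genes had medians of 29.1 and 42.7 CPM and were higher in 2. The 11 neuron genes summed to 139.9 to 309 CPM in members and 132 to 308 CPM in others, the macrophage genes to 15.3 to 90.9 and 17.6 to 91.2 CPM, the 8 Schwann genes to 13.8 to 123 and 18.02 to 131 CPM and the skeletal muscle genes to 10.1 to 93.2 and 27.1 to 109.5 CPM. Smooth muscle and pericyte genes summed to 189 to 1307 and 221 to 1023 CPM, and astrocyte genes to 59.7 to 261 and 80.5 to 211 CPM. Endothelial and epithelial genes reached at most 16.3 and 7.50 CPM in members, and Cldn4, an epithelial gene, was at 0 in members of every library.

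In the neuron, macrophage, Schwann, muscle, smooth muscle, epithelial, astrocyte, cell cycle and sex-linked lists, 0 genes differed in 1 direction in 9 of 9 libraries, with list medians of -0.11, -0.12, -0.12, -0.11, -0.10, 0.08, -0.22, 0.17 and -0.15. The neuron list does not hold the neurofilament genes Nefl and Nefm, which were higher in members in 9 of 9 libraries, as given above. Of 6 mesothelial genes 1 was lower (Lrrn4, median -1.65 over the list) and of 5 endothelial genes 1 (Kdr, list median -0.00). Of 18 clock genes Dbp (-0.43), an output gene of the clock, and Bhlhe40 (-0.38) were lower and 0 higher (median 0.02). Of 23 TNF and NF-kB genes Tnfaip2 (0.87) and Il6 (0.60) were higher and 4 lower, among them C3 (-0.69), with a median of -0.02. Of 18 interferon genes Ifit1 and Ifit3 were lower (median -0.12), and of 13 TGF-beta and myofibroblast genes Tgfbi (0.48) was higher and 3 lower (median 0.06). Over all genes 4.62% were higher and 6.92% lower in 9 of 9 libraries. Small counts such as those of the clock and interferon lists are therefore not read as results about members.

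Of the members 532 (13.7%) ranked among the cells most like doublets, against 10.2% of other fibroblasts, and without these cells 20 genes were at least 2-fold higher in 9 of 9 libraries. The 81999 cells carried 81172 distinct barcodes, of which 824 were in 2 or more libraries, and 4 barcodes were members in more than 1. WT on day 10 was the shallowest library, with a median of 12434 UMI in other fibroblasts against 17410 to 31968 UMI in the rest. The RNA of the targeted genes did not check the labels. Per1 was at 10.1, 10.8 and 12.6 CPM in Per1-/- members on days 4, 7 and 10 and 5.32, 7.01 and 8.45 CPM in WT members, and Per2 at 4.97, 4.71 and 4.58 CPM in Per2-/- members and 2.69, 3.0 and 2.15 CPM in WT members. Neither RNA was lower in its own mutant, and where the counted tags lie relative to the altered part of each gene was not analysed here. By western blotting of MEFs, the paper reports loss of PER1 protein in Per1-/- and of PER2 protein in Per2-/- cells.

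The share of fibroblasts that were members was compared between genotypes and days after thinning to 10000 UMI. Fibroblasts below that depth were left out of it, 2227 of 4919 in WT on day 10 and 34 to 331 in the other libraries, so the WT value of day 10 rests on the deeper cells of that culture. In WT cultures it was 2.45% on day 4, 2.35% on day 7 and 2.86% on day 10. In Per1-/- cultures it was 2.37%, 4.999% and 5.09%, and in Per2-/- cultures 1.2%, 3.18% and 3.37%. Per1-/- cultures had the largest share on days 7 and 10, with 95% exact binomial intervals of 4.32% to 5.75% and 4.54% to 5.69% above those of the other 4 cultures of these days, which reached 3.81% at most, and were level with WT on day 4. These intervals cover counting error and not the spread between cultures, of which there was 1 for each genotype and day. The order of the mutants on day 10 depended on the setting. With cells thinned less deeply, to more UMI each, the shares were 9.41% in Per1-/- and 9.85% in Per2-/- cultures, and with at least 4 of the 5 markers 0.530% and 0.720%. The mean over the 3 days was 2.55% ± 0.272 (SD, n = 3) in WT, 4.15% ± 1.54 in Per1-/- and 2.58% ± 1.2 in Per2-/- cultures. An exact permutation test of genotype within day gave p = 0.222, where 0.0278 is the smallest p it can give, so the difference between genotypes missed the threshold. Without thinning the shares were 7.45%, 5.71% and 4.61% in WT, 8.61%, 11.3% and 10.6% in Per1-/- and 3.16%, 8.18% and 7.35% in Per2-/- cultures.

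From day 4 to day 10 the thinned share changed by 0.0689 percentage points a day in WT, 0.454 in Per1-/- and 0.362 in Per2-/- cultures, 0.884 in sum. An exact 2-sided permutation test of day within genotype gave p = 0.0278, and 0.0556 after Benjamini-Hochberg adjustment over the 2 tests of shares, which missed the threshold. Without thinning p was 0.537, and the WT share then fell from day to day. The authors counted day 10 with another Cell Ranger version and feature table than days 4 and 7. In these slopes day and counting therefore cannot be told apart. The Per1-/- slope set a day 4 culture with Xist and distal limb genes against day 7 and day 10 cultures almost without them, so that day and these features of the cultures cannot be told apart within Per1-/-. Without Per1-/- day 4 the sum was 0.462 points a day (p = 0.0556, exact).

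**Figure D4:**
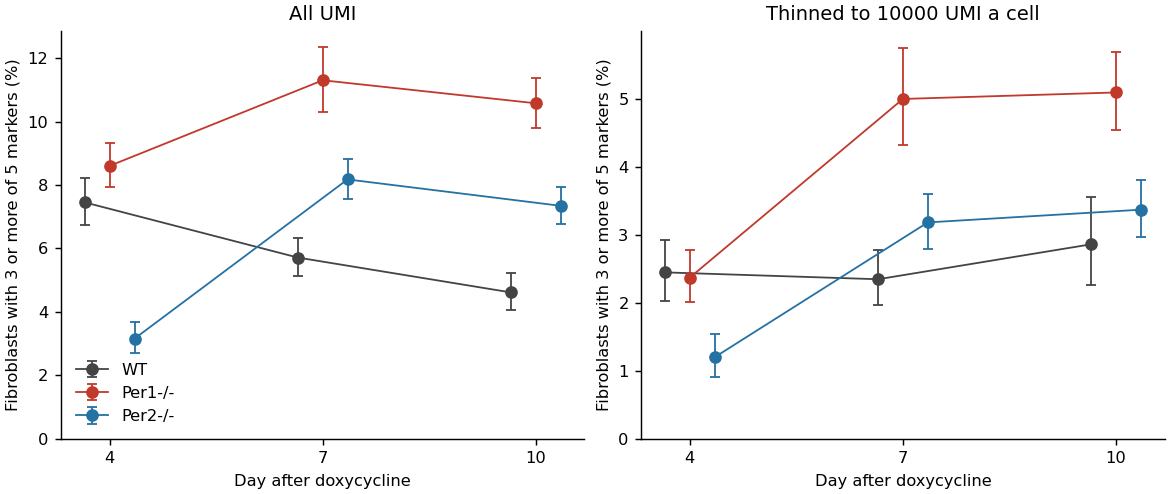
Share of fibroblasts that were members in each library, by day and genotype, with all UMI and with cells thinned to 10000 UMI. Points are libraries, and bars are 95% exact binomial intervals, which cover counting error only. After thinning, Per1-/- cultures stand at 4.999% and 5.09% on days 7 and 10 and the remaining 7 libraries at 1.2% to 3.37%.

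The fibroblasts that made the denominator differed between libraries. In other fibroblasts of Per1-/- cultures Msx1 was at 1.85 and 4.51 CPM on days 7 and 10, against 43.6 to 76.1 CPM in the remaining 7 libraries, and Hoxd13, as above, was low in the same libraries. The same 2 libraries had almost no Xist, the RNA of the inactive X chromosome of female cells, at 0.0798 and 0.141 CPM in members against 347 to 1111 CPM, and the highest Y-linked Ddx3y, at 94.2 and 99.1 CPM against 15.1 to 46.2 CPM. In Per1-/- cells on day 4 neither was so (56.1 CPM of Msx1 in others, 445 CPM of Xist in members). The share of members was 2.37% in that culture and 4.999% and 5.09% in the pair almost without Xist and Msx1. On days 7 and 10 these features cannot be told apart from the Per1-/- genotype, and within Per1-/- they cannot be told apart from day. Their part in the shares, in the genotype comparisons and in the comparison of days 4 and 7 was not tested.

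Genotypes were then compared in members alone, on counts summed per library, over 14049 genes outside the rule with edgeR's quasi-likelihood test and day as a covariate. The 3 comparisons share libraries. The mix of the pair, Tnmd and Col2a1 groups among members, given above, differed between libraries. Its part in these comparisons and in those of days was not tested. Between Per1-/- and WT 1 gene was called, Cilp, a matrix protein of cartilage and tendon (0.00712% of genes higher, 0.0% lower), while DESeq2 called 34 and edgeR without a filter on low counts 25. Cilp was at 0.364, 3.3 and 5.73 CPM in WT members on days 4, 7 and 10, 1.46, 16.4 and 23 CPM in Per1-/- and 0.432, 4.84 and 6.53 CPM in Per2-/- members. Per1-/- members were highest on each day. The log2 difference was 2.2 ± 0.178 (SE, edgeR adjusted p = 0.00746) against WT and 1.77 ± 0.171 (adjusted p = 0.0165) against Per2-/- members. In other fibroblasts it was 2.06 against WT, where edgeR did not call it (adjusted p = 0.376). The call against WT was lost without WT day 7, Per1-/- day 7, WT day 10 or Per1-/- day 10, with edgeR adjusted p of 0.166 to 0.250 and log2 differences of 2.08 to 2.27. It was also lost with at least 4 of the 5 markers (log2 difference 1.97, edgeR adjusted p = 0.813). Without Per1-/- day 4, 18 genes were called, and 7 without Per2-/- day 4.

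Pcp4l1, a relative of the calmodulin-binding Pcp4, was the second gene that edgeR called between the mutants (0.00712% of genes in each direction), where DESeq2 called 67. It was at 2.41, 0.958 and 1.41 CPM in Per1-/- members on days 4, 7 and 10, 7.87, 3.0 and 3.01 CPM in WT and 11.7, 6.26 and 6.04 CPM in Per2-/- members, a log2 difference of -2.38 ± 0.227 (edgeR adjusted p = 0.0165). Without Per1-/- day 4, 76 genes were called between the mutants and 27 without Per2-/- day 4, while 0 were called without Per1-/- day 7, Per2-/- day 7 or any library of day 10. Pappa (1.16), Col9a1 (-3.05) and D2hgdh (1.1) came next and did not pass. Without marked doublets Pcp4l1 (edgeR adjusted p = 0.199) and Cilp (adjusted p = 0.0638) were both lost between the mutants, and Pappa was the 1 gene called (log2 difference 1.18, adjusted p = 0.0357). With at least 4 markers 0 genes were called.

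Between Per2-/- and WT members edgeR called 0 genes (0.0% in each direction), with 1101 at an unadjusted p under 0.05, and DESeq2 called 44. Without Per2-/- day 4 edgeR called 23, and 5 without Per1-/- day 4. The genes with the smallest p, none of which passed, were Ntrk2 (log2 difference 1.27), Cpxm2 (2.27), D2hgdh (-1.16), Aqp1 (-1.42) and Trp53inp1 (-0.69), with edgeR adjusted p of 0.072 to 0.161. Ntrk2, the receptor of brain-derived neurotrophic factor, was at 9.1, 9.41 and 20.6 CPM in WT members on days 4, 7 and 10 and 18.4, 22.9 and 48.8 CPM in Per2-/- members. After Cilp, the genes with the smallest p between Per1-/- and WT were Uty, Cpxm2, Ddx3y and Prdm6, which did not pass, and Uty and Ddx3y are Y-linked.

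By list, Cilp, 1 of 18 tendon genes, was the only call in the genotype comparisons, and the sclerotome, cartilage, bone, signal, limb, face, Hox, clock, TNF and NF-kB, interferon and TGF-beta lists had 0. Of 20 chondrogenic genes tested 17 had a positive log2 difference between Per2-/- and WT members, with a median of 1.12 against 0.01 over all genes, of which 51.1% were positive, and 0 passed. Col9a1, a collagen of cartilage fibrils, was at 6.78 and 11.2 CPM in Per2-/- members on days 7 and 10 and at 0.473 to 1.73 CPM in the remaining 7 libraries. Those 2 libraries also had the largest shares of members in the Col2a1 group, which the rule's own gene defines. Of 23 TNF and NF-kB genes 21 had a positive difference between Per1-/- and WT members, with a median of 0.27, and 0 passed. Over all genes 51.4% were positive in that comparison and the median was 0.01. The 11 macrophage genes had a median of 0.90 in that comparison, with 9 positive. They summed to 19.7, 22.5 and 29.8 CPM in WT members on days 4, 7 and 10 and to 33.4, 61.2 and 56.9 CPM in Per1-/- members. In Per2-/- members they summed to 15.3, 73.4 and 90.9 CPM. Between Per2-/- and WT members the macrophage genes had a median of 1.43, with 10 of 11 positive. The TNF and NF-kB genes had a median of -0.08 there, with 8 of 23 positive. The part of macrophage RNA in these results was not tested.

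A further test asked whether the genotype difference was of another size in members than in other fibroblasts, with both sums of each library and the library as a block, over 15286 genes. It called 3 genes (0.0196%), with 1175 at an unadjusted p under 0.05. Aqp1, a water channel, was at 27.5, 34 and 44.2 CPM in WT members on days 4, 7 and 10, 12.3, 18.3 and 32 CPM in Per1-/- and 12.5, 9.89 and 16.9 CPM in Per2-/- members, and at 5.76 to 10.5 CPM in other fibroblasts. WT members were highest on each day. Relative to other fibroblasts, the log2 difference from WT was -1.08 in Per1-/- and -1.89 in Per2-/- members (edgeR adjusted p = 0.0173 for both together). Zdbf2, an imprinted gene, was at 13.6, 12.9 and 13.5 CPM in WT members on days 4, 7 and 10, 16.2, 12.8 and 15.7 CPM in Per1-/- and 24.4, 27.9 and 11.5 CPM in Per2-/- members. In other fibroblasts it was at 20.5, 22 and 22.1 CPM in WT, 20.3, 21.1 and 19.7 CPM in Per1-/- and 18.1, 23.3 and 8.87 CPM in Per2-/- cultures. Members were thus above other fibroblasts on each day in Per2-/- and below them in WT and Per1-/- cultures, a relative log2 difference from WT of 0.23 in Per1-/- and 1.03 in Per2-/- members (edgeR adjusted p = 0.0173 for both together). Hspb1, a small heat shock protein, was at 47.7, 28.6 and 26.6 CPM in WT, 41.5, 37.4 and 26.8 CPM in Per1-/- and 64.4, 39 and 36.2 CPM in Per2-/- members, and at 31.9, 18.7 and 22.2 CPM, 34.8, 38.3 and 31 CPM and 32.6, 22.7 and 23.2 CPM in other fibroblasts in the same order. Its relative log2 difference from WT was -0.48 in Per1-/- and 0.30 in Per2-/- members (edgeR adjusted p = 0.0335 for both together). Without any 1 of WT, Per1-/- or Per2-/- day 7, WT day 10 and Per2-/- day 10, 0 genes were called, 19 without WT day 4 and 195 without Per1-/- day 4. The pair group was 54.3%, 54.3% and 42.3% of WT members on days 4, 7 and 10. It was 41.6%, 44.3% and 31.3% of Per1-/- and 44.7%, 28.5% and 25.1% of Per2-/- members. Whether this mix had a part in the 3 calls was not tested.

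Between days 4 and 7, 107 genes rose in members (0.762%) and 103 fell (0.733%). All 210 had the same sign in other fibroblasts of these cultures, where edgeR called 72 of them. The genes with the smallest p among those that rose were Cilp (3.45), C1qtnf3 (2.48), Adam33 (1.06), 2810433D01Rik, Fxyd1, Pcsk5 (1.7), Cpz (1.92), Nid2 (0.85), Clec11a and Cd55. C1qtnf3, a secreted relative of complement C1q, was at 12.6, 27.1 and 30.5 CPM in WT, Per1-/- and Per2-/- members on day 4 and 75.9, 157 and 147 CPM on day 7, and rose by 2.48 ± 0.194 on the log2 scale (SE, edgeR adjusted p = 0.00275). Pcsk5 is a protease that activates growth factors, and Nid2 is a protein of basement membranes. Among those that fell were Cdc20 (-1.27), Adm, Tacc3, Cenpa, Aurka, Cdk1, Msmo1, Birc5, Sms and Tpx2, of which Cdc20, Tacc3, Cenpa, Aurka, Cdk1, Birc5 and Tpx2 serve mitosis. Without marked doublets 90 genes rose and 72 fell, and the calls of Cdc20 (log2 difference -0.87, edgeR adjusted p = 0.151) and Aurka (-1.45, adjusted p = 0.0628) were lost. Cdk1, the mitotic kinase, was at 36.5, 44.5 and 41.9 CPM on day 4 and 17, 17.7 and 25 CPM on day 7, a log2 difference of -1.05 ± 0.125 (edgeR adjusted p = 0.0121).

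By list, 9 of 16 cell cycle genes fell and 0 rose (median -1.10 against 0.01 over all genes), among them Mki67 (-1.15), Top2a (-1.18), Ccnb1 (-1.33) and Ube2c (-1.55). Of 18 tendon genes Cilp, Fmod (1.31) and Col14a1 (1.21) rose, and of 20 chondrogenic genes Col27a1 (0.63). Of 29 skeletal signals the BMP antagonist Chrdl1 (1.7) and the Wnt modulator Sfrp2 (1.23) rose. Of 18 fibroblast genes Dcn (0.92), Lum (0.80) and Mfap4 (1.08) rose and Thy1 fell (-0.85), and of 11 adventitial genes Clec3b (2.64), Cd34 (0.82) and Sema3c (0.69) rose. Of 23 TNF and NF-kB genes Icam1 (0.73) and C3 (4.61) rose. The summed macrophage genes were at 19.7, 33.4 and 15.3 CPM in WT, Per1-/- and Per2-/- members on day 4 and 22.5, 61.2 and 73.4 CPM on day 7, higher in each genotype, and their part in this was not tested. The sclerotome, bone, limb, face, Hox, clock, interferon and TGF-beta lists had 0 calls. The number of calls hung on single libraries, with 4 without Per1-/- day 4, 7 without Per1-/- day 7, 15 without WT day 7, 42 without Per2-/- day 7 and 48 without WT day 4, and Cilp and C1qtnf3 were called in each of the 9 fits that left out 1 library. With at least 4 of the 5 markers Cilp was not called (log2 difference 5.60, edgeR adjusted p = 0.0748). Its levels on day 4, given above, were low.

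Between days 7 and 10, 149 genes were called higher (1.06%) and 28 lower (0.199%), but the authors counted day 10 with another Cell Ranger version and another feature table, and day and counting cannot be told apart. Ptp4a1, a phosphatase, was at 84.3 to 106 CPM in the 6 member sums of days 4 and 7 and at 0.777 to 1.57 CPM on day 10, and Fam89b at 0.718 to 1.46 and 50.3 to 62.4 CPM. With these, the genes with the smallest p were Mrpl53, Timm23, Galnt2, Gng10, Fads2, Nanp, Ndfip1, Fdx1l and Pelo among the higher and Rps6ka4, Nxf1, Coro1b, Fam220a, Taf6l, Chtf8, Rnf149, 4933427D14Rik and Srf among the lower. In macrophages of the same libraries these 20 genes differed in the same direction, and 117 of the 177 calls (66.1%) differed there by at least 1 on the log2 scale in that direction, against 1.22% of all genes tested. Between days 4 and 7 this held for 20 of 210 calls (9.52%). Without WT day 7, 109 genes were called, and 117 without Per1-/- day 10.

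The remaining 60 calls, 45 higher and 15 lower on day 10, were separated after the data were seen. Of these, 37 (61.7%) still differed in macrophages by at least 0.5 in the same direction, against 3.66% of all genes not past the limit of 1, and for all 60 day and counting cannot be told apart. Among them Ntrk2 rose by 1.25 ± 0.129 on the log2 scale (SE, edgeR adjusted p = 0.000826) and Cpz, a carboxypeptidase that binds Wnt proteins, by 1.47 ± 0.18, where the differences in macrophages were 0.27 and 0.83. Tgfbi, a matrix protein induced by TGF-beta, was at 82.3, 95.6 and 53.9 CPM in WT, Per1-/- and Per2-/- members on day 7 and 44.1, 38.2 and 32 CPM on day 10 (-1.03, and -0.24 in macrophages). Il13ra1, a receptor chain of interleukin 13 (-0.85), Slc40a1, the iron exporter (-0.91), and Hoxb9 (-0.70) fell.

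The test of whether the difference between days was of another size in members than in other fibroblasts called 2 of 15286 genes (0.0131%), with 1102 at an unadjusted p under 0.05. Col6a6, a collagen VI chain, was at 19.8, 16.7 and 17.1 CPM in WT, Per1-/- and Per2-/- members on day 4, 16.9, 34 and 19.7 CPM on day 7 and 18.2, 103 and 17.2 CPM on day 10. In others it was at 13.5, 10.2 and 10.4 CPM, 19.6, 44.4 and 24.7 CPM and 19.1, 111 and 20.1 CPM. Members were above others on day 4 in all 3 genotypes and below them on days 7 and 10 (edgeR adjusted p = 0.0364). Ckb, the brain-type creatine kinase, was at 58.3, 49.7 and 43.7 CPM in members and 37.6, 31.5 and 29 CPM in others on day 4, 41.9, 50.2 and 58.9 and 32.1, 34.8 and 42.1 CPM on day 7 and 46.1, 49.4 and 67.5 and 46.5, 50.5 and 69.9 CPM on day 10 (edgeR adjusted p = 0.0364). The count was 0 without Per2-/- day 4, any library of day 7, WT day 10 or Per2-/- day 10, 4 without WT day 4 and 9 without Per1-/- day 4.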

How the data were processed

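The deposited files held raw UMI counts per gene and barcode, which the authors made with Cell Ranger on mm10. The labels name version 7.1, while the file headers name 4.0.0 (days 4 and 7) and 6.0.0 (day 10). Library totals were 126625215 to 353198559 UMI. The gene models of the 2 feature tables were joined on 30406 shared gene IDs. Members and gene lists were chosen with earlier results of these data known. Counts were summed per library and tested with edgeR 4.0.16 (TMM, its filter on low counts, quasi-likelihood F-test, Benjamini-Hochberg threshold 0.05), with genotype and day as terms and the 12 genes of the rule left out. Members were set against other fibroblasts by log2 ratios of CPM + 0.5 without a test. Doublet scores (Scrublet in scanpy 1.11.5) marked a top share of each library that grew with its number of barcodes, and none were removed. The labels name no separate cultures behind a group, so p-values rest on the spread over days or genotypes. Named genes were the markers, the members of the lists, the 20 highest and 10 lowest by median ratio with 9 of 9 libraries in 1 direction, the 10 smallest p in each direction of a comparison and, where fewer than 3 genes passed, the 5 smallest p. DESeq2 1.42.0, other size factors, filters, marker numbers, thinning depths and leaving out each library were alternatives. The edgeR script was tested on simulated counts. Some genes of the lists are not reported here.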

Additional observations from a re-analysis of the deposited data

Results flagged for a closer look

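In 5 genes the difference between genotypes or days was of another size in members than in other fibroblasts of the same libraries, by edgeR's test of that difference itself. For genotype these were Aqp1 (edgeR adjusted p = 0.0173), Zdbf2 (adjusted p = 0.0173) and Hspb1 (adjusted p = 0.0335). For day they were Col6a6 (adjusted p = 0.0364) and Ckb (adjusted p = 0.0364). Over 14 other settings Aqp1 passed in 9, Zdbf2 in 7, Hspb1 in 5, and Col6a6 and Ckb in 4 each. The cause of these differences was not tested.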

How the results depend on the processing

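Calls between groups depended on the filter and the tool. Without a filter on low counts edgeR called 25 genes between Per1-/- and WT members, 43 between Per2-/- and WT, 61 between the mutants, 561 between days 4 and 7, 309 between days 7 and 10, and 60 (genotype) and 18 (day) in the tests of unequal differences. DESeq2 called 34, 44, 67, 491, 278, 75 and 46. With at least 4 markers the counts were 0, 1, 0 and 32 in the first 4 comparisons and 10 for unequal day differences. Without marked doublets they were 3, 4 and 1 between genotypes and 0 for unequal day differences. Leaving out single libraries gave 0 to 18, 0 to 23, 0 to 76, 4 to 281, 109 to 205, 0 to 195 and 0 to 9. The cause was not tested. Without genes that moved in macrophages, an alternative chosen after seeing the data, 60 calls were left between days 7 and 10. At least 2-fold lower in members were 17 genes without marked doublets, 13 with at least 4 markers, 1 with 2 CPM added and 7 to 11 without single libraries, in place of 7. With 2 CPM added, 7 genes were at least 2-fold higher in members in place of 17, and 17 to 25 without single libraries. The summed slope of the share over days, 0.884 points a day, was 0.254 points a day with a lower thinning depth (exact permutation p = 0.0926), 0.554 without thinning (p = 0.537, exact) and 3.73 with at least 2 markers (p = 0.0741, exact), 1.93 with a higher thinning depth (p = 0.037, exact), 0.174 with at least 4 markers (p = 0.037, exact), 0.919 without marked doublets (p = 0.0185, exact), 0.681 as a share of all cells (p = 0.00926, exact) and 0.462 to 1.31 without single libraries, with exact p of 0.0278 to 0.139. The genotype difference of the share (Per1-/- minus the mean of the others) was 1.59 points, 0.401 with the lower and 2.12 with the higher thinning depth, 4.09 without thinning, 11.9 with at least 2 and 0.120 with at least 4 markers, 0.856 as a share of all cells and 1.12 to 2.48 without single libraries, and missed the threshold in each. The order of Per1-/- and Per2-/- cultures in the share on day 10 reversed with more UMI kept in thinning and with at least 4 markers, where the mean shares of these genotypes were 0.485% and 0.486%. Calls between days 4 and 7, 107 higher and 103 lower, were 70 and 102 without Per2-/- day 4, 36 and 12 without WT day 4, 12 and 3 without WT day 7, 7 and 0 without Per1-/- day 7 and 23 and 9 with at least 4 markers. Counting error alone is covered by the intervals, and 161 Per2-/- members on day 4 were the fewest. Genotypes were matched by day in the permutation test and by the day term in edgeR, and the labels carry no replicate numbers that would pair cultures further.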
